A study of Mus musculus with 4 samples.

Results

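The 9 genes described here are members of folate and one-carbon metabolism that have been tied to neural tube defects. They were taken by symbol from the gene list of the count tables, as *Folr1*, *Slc19a1*, *Slc46a1*, *Mthfd1*, *Shmt1*, *Mthfd1l*, *Mthfd2*, *Shmt2* and *Gldc*, and all 9 of the 9 symbols were found among 31055 genes. Their expression was followed across the cell types of the caudal part of mouse embryos with 6-7 somites (E8.5) in WT and *Grhl3*-null animals. Embryos came from intercrosses of mice carrying 1 null allele of *Grhl3*, on a C57BL/6 background, and *Grhl3* was inactivated throughout the null embryos rather than in 1 tissue. Cells of 5 WT embryos were combined into 1 pool and cells of 3 *Grhl3*-null embryos into another, and 2 droplet reactions were run on each pool. The 4 libraries are called WT 1, WT 2, null 1 and null 2. A difference between genotypes is thus a difference between 2 pools. Its p-value holds the spread between repeated reactions but none between embryos.

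Folates carry one-carbon units between metabolites. Cells take folate up through a reduced folate carrier, a proton-coupled transporter and a receptor anchored in the membrane. In the mitochondria serine and glycine give up one-carbon units, which leave as formate, and in the cytosol formate is built back into folates used for purines, thymidylate and the methyl groups of methionine. Supplementing folic acid lowers the risk of neural tube defects in people, and mice lacking *Folr1*, *Mthfd1l* or *Gldc* are known to develop such defects.

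The libraries held between 209833527 and 226723903 unique molecular identifiers (UMIs) in between 4781 and 5459 cells after filtering. Libraries shared between 5 and 7 cell barcodes. *Grhl3* gave 878 and 803 UMIs in the WT and 12 and 14 UMIs in the null libraries. Cells were grouped into 15 classes by the study's marker genes, which were found on these same cells, so that a class name ends in "-like". The pre-somitic mesoderm-like class held 500 and 482 WT but 3 and 4 null cells, and primordial germ cells-like cells numbered 14, 5, 14 and 26, so neither was tested between the genotypes. A cluster without a name (unnamed 10) had a median mitochondrial share between 0.0464% and 0.0678% of UMIs. Its cells held a median of 16220 UMIs, the fewest of all clusters. Cells were called male or female from *Xist* and Y-linked genes, and male cells made up 26.5% and 27.0% of the called WT but 55.6% and 57.5% of the called null cells. In the WT pre-somitic mesoderm-like class they made up 0% and 0.210% of the called cells. For the near absence of this class in the null, genotype, sex and embryo cannot be told apart.

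In the GENCODE annotation of mm10 all 9 genes are protein coding. *Folr1* lies at chr7:101858331-101870788 on the minus strand, *Slc19a1* at chr10:77032241-77061002 and *Slc46a1* at chr11:78465697-78472059, both on the plus strand. The cytosolic enzymes lie at chr12:76255298-76319803 on the plus strand (*Mthfd1*) and chr11:60788104-60811718 on the minus strand (*Shmt1*). The mitochondrial enzymes lie at chr10:3973118-4167081 on the plus strand (*Mthfd1l*), chr6:83305691-83325908 on the minus strand (*Mthfd2*) and chr10:127517123-127522444 on the minus strand (*Shmt2*). *Gldc* lies at chr19:30098447-30175429 on the minus strand. Exons of *Mthfd1*, *Shmt1* and *Shmt2* overlap exons of a gene on the other strand (*Gm47525*, *Smcr8* and *Ndufa4l2*). No exon of a member overlaps another gene on its own strand. Whether the counting used strand is not given in the sources used here, so for these 3 genes reads from the partner cannot be told apart without it.

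The promoters of 3 members are shown because they belong to the members whose levels moved with the phase of the cell cycle or moved most often between the genotypes. Each runs from 250 bases before to 50 bases after a RefSeq transcription start in GRCm38.p6, 5′ to 3′ on the gene's strand, and capitals mark the letters of the motifs searched, on both strands. They lie at chr12:76254982-76255281 on the plus strand, chr6:83317555-83317854 on the minus strand and chr11:60811216-60811515 on the minus strand.
*Mthfd1*: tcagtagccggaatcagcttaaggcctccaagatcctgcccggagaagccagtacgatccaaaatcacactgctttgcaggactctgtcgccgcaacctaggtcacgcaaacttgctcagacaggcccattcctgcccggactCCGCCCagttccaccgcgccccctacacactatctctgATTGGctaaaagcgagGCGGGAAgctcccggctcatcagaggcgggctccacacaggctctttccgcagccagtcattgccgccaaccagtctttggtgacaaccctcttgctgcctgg
*Mthfd2*: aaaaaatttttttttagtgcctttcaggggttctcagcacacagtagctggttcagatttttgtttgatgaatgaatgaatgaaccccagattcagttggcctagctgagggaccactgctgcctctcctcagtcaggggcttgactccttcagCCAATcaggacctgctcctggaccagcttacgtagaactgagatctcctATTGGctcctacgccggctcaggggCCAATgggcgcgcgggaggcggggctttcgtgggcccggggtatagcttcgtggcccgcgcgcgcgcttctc
*Shmt1*: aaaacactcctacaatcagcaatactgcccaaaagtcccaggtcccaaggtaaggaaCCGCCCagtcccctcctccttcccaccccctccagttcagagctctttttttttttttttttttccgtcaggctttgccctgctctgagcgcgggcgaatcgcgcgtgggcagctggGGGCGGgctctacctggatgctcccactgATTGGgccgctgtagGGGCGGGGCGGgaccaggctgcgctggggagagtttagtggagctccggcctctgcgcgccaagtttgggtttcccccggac
The *Mthfd1* window holds an E2F-type motif (GCGGGAA) 53 bases before the start. Of the 9 windows that RefSeq gives for 8 of the members it was the only one with this motif, which 4.6% of all 32851 windows hold. The *Mthfd2* window holds 3 CCAAT boxes (CCAAT or ATTGG) at 96, 47 and 22 bases before the start. A CCAAT box stood in 4 of the 9 member windows against 37.4% of all windows, and a GC box (GGGCGG, with some copies overlapping in *Shmt1*) in 6 of the 9 against 35.7%. Neither the E-box CACGTG (7.15% of all windows) nor the Atf4-type motif TGATGNAAN (3.95%) was in any of the 9. *Folr1* had no window. A match of letters is a description and no sign that a factor binds.

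Levels are given as CPM (counts per 1e+06), from the UMIs of each class added up within a library. The method counts the 3′ ends of transcripts, and levels are compared between classes for 1 gene and not between genes. Since clusters were drawn from the same counts, differences between classes are descriptions without a test. Over the 14 classes with at least 20 cells in both WT libraries the members fell into genes with a strong preference for few classes (*Folr1*, *Gldc*) and genes that were read in every class, most of them within a narrow range.

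*Folr1*, the receptor that binds folate at the cell surface, was read mainly in the gut-like class. There it reached 38.1 and 42.8 CPM in WT 1 and WT 2, far above the next class. That was the SE/NPB-like class (surface ectoderm / neural plate border), with 3.68 and 3.07 CPM. The neuroepithelium-like class followed with 2.56 and 2.88 CPM and the neuromesodermal progenitor (NMP)-like class with 1.34 and 1.18 CPM, and none of these 4 neighbours overlapped. In the other classes WT levels were at most 0.695 CPM and rested on at most 8 UMIs in a library. No UMI was read in the notochord-like class, where 3 UMIs, the limit that a count of 0 allows, would be 1.26 CPM in WT 1 and 0.918 CPM in WT 2. Primordial germ cells-like cells gave 19.1, 32.4, 40.3 and 20.5 CPM in the 4 libraries from 11, 7, 26 and 20 UMIs, and so came next to the gut. The summed level of 15 gut markers outside the gut is given beside the comparisons of *Folr1* below.

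The carriers had other patterns. *Slc19a1*, the reduced folate carrier, was highest in the neuroepithelium-like class at 25.6 and 25.3 CPM and lowest in the pre-somitic mesoderm-like class at 14.8 and 15.4 CPM, a range of 1.69-fold. Between these, most neighbouring classes overlapped. The called WT cells of the pre-somitic mesoderm-like class were nearly all female, and the part of sex or embryo in its level was not tested. *Slc46a1*, the proton-coupled transporter, was sparse. The SE/NPB-like class had 7.13 and 5.72 CPM, and the erythroid-like (1.63 and 1.01 CPM) and endothelium-like (0.444 and 1.81 CPM) classes were lowest. Most neighbours in its order overlapped.

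Among the cytosolic enzymes, *Mthfd1*, which interconverts one-carbon folates in 3 steps, ranged from 36.7 and 45.6 CPM in the notochord-like class to 71.6 and 57.8 CPM in unnamed 10. *Shmt1*, the cytosolic enzyme that interconverts serine and glycine, ranged from 34.7 and 34.3 CPM in the paraxial mesoderm-like class to 52.8 and 52.5 CPM in the mesenchyme 1-like class. At the low end the paraxial mesoderm-like class did not overlap its neighbour, the endothelium-like class (41.0 and 37.1 CPM). Primordial germ cells-like cells stood far above this range, at 130, 97.2, 119 and 117 CPM from 75, 21, 77 and 114 UMIs.

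The mitochondrial enzymes were ordered differently from one another. *Mthfd2*, the dehydrogenase and cyclohydrolase typical of growing cells, was highest in the neuroepithelium-like class (118 and 116 CPM) and lowest in the gut-like class (47.6 and 52.9 CPM), 2.33-fold apart. It was also low in the notochord-like (58.6 and 53.2 CPM) and the SE/NPB-like class (64.7 and 64.8 CPM), and none of these low classes overlapped. *Shmt2*, the mitochondrial partner of *Shmt1*, was highest in erythroid-like (71.4 and 73.5 CPM) and endothelium-like cells (64.3 and 58.7 CPM). Its lowest levels were in the SE/NPB (34.7 and 32.2 CPM), notochord (29.9 and 38.2 CPM) and gut-like classes (36.9 and 31.8 CPM), which overlapped. *Mthfd1l*, which releases formate, spanned 1.51-fold, from the notochord-like class (31.6 and 25.7 CPM) to the endothelium-like class (41.3 and 45.2 CPM). In primordial germ cells-like cells *Mthfd1l* and *Mthfd2* were low, with *Mthfd1l* at 19.1, 9.26, 9.31 and 15.4 CPM and *Mthfd2* at 55.6, 27.8, 27.9 and 46.2 CPM. These levels rest on few UMIs, from 14, 5, 14 and 26 cells. There 3 UMIs would be 5.21, 13.9, 4.65 and 3.08 CPM, so the WT 2 value of *Mthfd1l* was under 3 UMIs.

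*Gldc*, the glycine-splitting subunit of the glycine cleavage system, was read at 132 and 136 CPM in the gut-like class, above the NMP-like class (58.5 and 59.7 CPM). The neuroepithelium-like (42 and 47.4 CPM) and SE/NPB-like classes (41.1 and 39.9 CPM) came next. From there it fell away through the somitic mesoderm-like class (21.7 and 22.8 CPM) to the mesenchyme 1-like (6.63 and 7.56 CPM) and erythroid-like classes (4.24 and 6.55 CPM), 24.8-fold under the gut. The first 5 classes in this order did not overlap. Primordial germ cells-like cells gave 62.5, 83.3, 45.0 and 69.8 CPM.

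**Figure D1:**
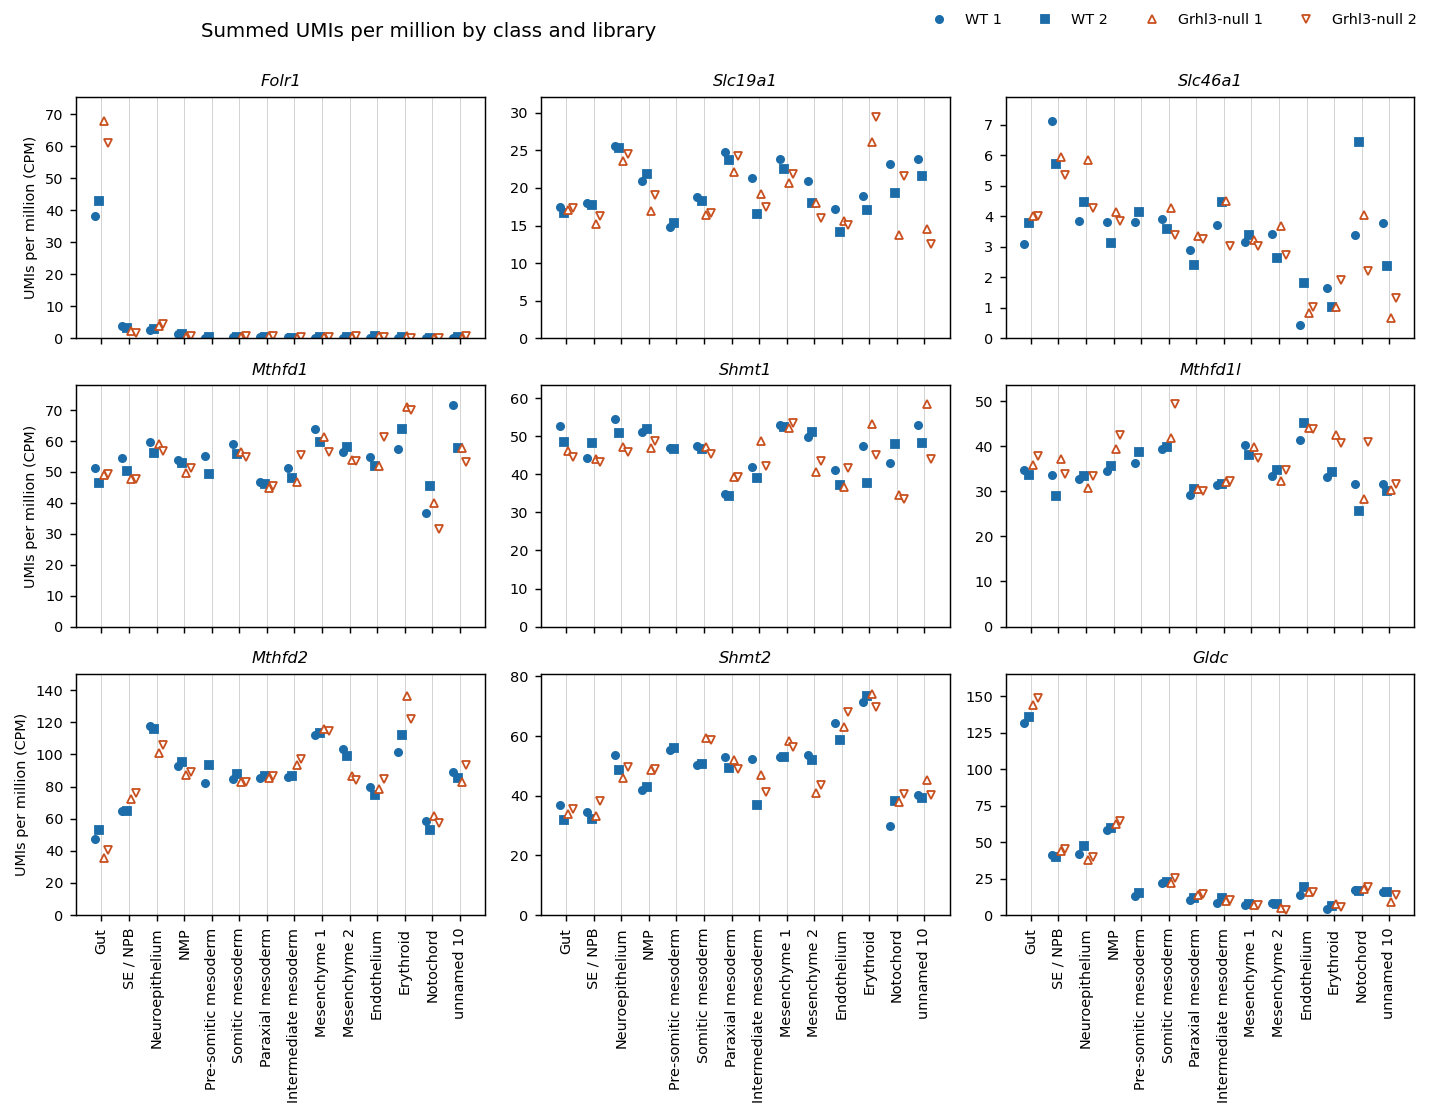
Each panel plots 1 gene, with the 14 classes along the x axis and CPM on a y axis that starts at 0. Filled blue symbols are the WT libraries and open orange symbols the null libraries, classes with under 20 cells in a library are left out for it, and *Folr1* and *Gldc* stand out by their gut-like points (38.1 and 42.8 CPM, and 132 and 136 CPM, in WT) while *Mthfd1* and *Shmt1* are nearly level.

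The mesenchyme 1-like class joined 2 clusters whose levels of the mitochondrial enzymes differed. The smaller one, of 402 cells led by *Tbx4* and *Capn6*, had *Mthfd2* at 157, 147, 143 and 142 CPM in WT 1, WT 2, null 1 and null 2, against 108, 111, 110 and 109 CPM in the larger one. *Shmt2* stood at 81.1, 69.8, 81.1 and 80.4 CPM in the smaller cluster and at 50.0, 51.7, 53.2 and 51.4 CPM in the larger. Every library of the smaller cluster was thus above every library of the larger one for both genes, and above the neuroepithelium-like class for *Mthfd2*. *Gldc* was at most 7.82 CPM in either cluster. Under each of the 3 other clusterings tried *Folr1* and *Gldc* were highest in the gut-like and *Slc46a1* in the SE/NPB-like class. For each of the other 6 members the class with the highest level changed under at least 1 of them. The smaller cluster held 64, 41, 159 and 138 cells and the larger 599, 566, 738 and 687 cells in WT 1, WT 2, null 1 and null 2.

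Across the 14 classes the WT means of some members ran together, which is given as Pearson's r of log2(CPM + 1) over 14 points that share libraries, without a test. *Folr1* and *Gldc* had r = 0.83, *Mthfd2* and *Shmt2* 0.72, *Mthfd1* and *Mthfd2* 0.69, and *Slc46a1* and *Shmt2* -0.74. Among up to 7748 genes with a mean of at least 10 CPM, those most like *Folr1* were *Slc16a1* (r = 0.92), *Crb3* (0.88) and *Nepn* (0.87), and those most like *Gldc* were *Cystm1* (0.90), *Zdhhc2* (0.86) and *Pls3* (0.86). *Mthfd2* was closest to *Stard7* (0.96), *Wdr75* (0.93) and *Recql* (0.92), and *Shmt2* to *Eif2s2* (0.89), *Slc20a1* (0.88) and *Atf4* (0.87). For *Mthfd1* they were *Llph* (0.93), *Impdh2* (0.91) and *Acbd6* (0.90), and for *Shmt1* *Echdc2* (0.84), *Nme4* (0.82) and *Cdk5rap3* (0.77). *Slc46a1* was closest to *Cyb5r3* (0.90), *Lrrfip2* (0.89) and *Dhrs1* (0.88). The values were lower for *Slc19a1* (*Tmem41a* and *Yars2*, 0.75 each, and *Dtwd1*, 0.74) and for *Mthfd1l* (*Nus1* and *Msn*, 0.75 each, and *Zfp36l2*, 0.74). Like *Mthfd1*, the genes *Llph*, *Impdh2*, *Acbd6*, *Cdk5rap3*, *Yars2* and *Dtwd1* were highest in unnamed 10, whose cells held the fewest UMIs. The part of that cluster in these values was not tested.

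To ask whether the loss of *Grhl3* went with a change in these genes, WT and null UMI sums of each class were set against each other with the quasi-likelihood F-test of edgeR, with p-values adjusted over all genes of the class and a call at an adjusted p under 0.05. In 12 classes 23 of 100 member tests were called, 9 higher and 14 lower in the null, which is 23.0%, while 13.3% of the tests of all genes were called in the same classes. Most of the differences were small, with 17 of the 23 calls under 0.5 on the log2 scale and 2 of at least 1. Both of these were of *Folr1*. That of the paraxial mesoderm-like class passed the count minimum of the fit only through the null libraries. *Folr1* was called in 5 of 7 classes tested and *Shmt1* in 5 of 12, *Mthfd2* in 4 of 12, *Gldc* and *Shmt2* in 3 of 12, *Mthfd1l* in 2 of 12 and *Slc19a1* in 1 of 12. *Mthfd1* was called in 0 of 12 and *Slc46a1* in 0 of 9. By DESeq2, 6 of the 23 calls were kept (2 had no adjusted p), namely *Folr1* and *Mthfd2* in the gut-like, *Gldc*, *Mthfd2* and *Shmt2* in the mesenchyme 2-like and *Mthfd2* in the neuroepithelium-like class, and so the other calls rest on edgeR. DESeq2 also called fewer of all genes, with 937 of 13124 in the gut-like class against 2620 by edgeR. The counts were 934 of 12383 against 2430 in the mesenchyme 2-like class and 1236 of 13035 against 2948 in the neuroepithelium-like class. In the NMP-like class it was 847 of 13650, in the paraxial mesoderm-like 1191 of 13509 and in the somitic mesoderm-like 590 of 13088. The SE/NPB-like class had 626 of 12521, the mesenchyme 1-like 502 of 13334 and unnamed 10 116 of 8773. The intermediate mesoderm-like class had 98 of 10861, the endothelium-like 37 of 11445 and the erythroid-like 29 of 8585. The 23.0% against 13.3% is thus a result of edgeR alone. No excess over all genes is read from the 6 calls by DESeq2. Of the 23 member calls, 3 of the 21 fitted among male cells alone were called, 1 of them in the opposite direction, and among female cells 16 of 22. Calls of all genes also differed between the sexes. In the NMP-like class 515 of 11803 were called in male and 2912 of 12755 in female cells. In the gut-like class it was 1691 of 11965 against 903 of 11893. Finer clusters (resolution 0.8) kept 14 of the 23, and none of the 8 calls in the mesenchyme 2-like and neuroepithelium-like classes was among these. In those 2 classes few genes of any kind were then called, 62 of 10377 and 393 of 11576. The classes were also smaller, with 355 against 1607 and 1030 against 2251 cells. The loss there was thus not particular to the members. Other clusters were drawn at this resolution, among them a caudal mesoderm-like class of 1251 cells. A cluster without a name, of 424 cells, was led by *Hoxc10* and *Hoxa10*. The same name thus need not cover the same cells, and most of the 8 values fell near 0. The part of cell content or cell number in this was not tested.

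By class, the members read as follows beside all genes. In the NMP-like class 6 of 9 members were called (18.8% of all genes), in the neuroepithelium-like class 4 of 9 (22.6%), in the mesenchyme 2-like class 4 of 8 (19.6%), in the gut-like class 3 of 9 (20%), in the paraxial mesoderm-like class 3 of 9 (19.8%), in the somitic mesoderm-like class 2 of 9 (15.5%) and in the SE/NPB-like class 1 of 9 (14%). No member was called in the mesenchyme 1-like class (0 of 9, with 9.5% of all genes), unnamed 10 (0 of 7, 4.88%) or the intermediate mesoderm-like class (0 of 8, 3.2%). The same held for the endothelium-like (0 of 7, 0.795%) and erythroid-like classes (0 of 7, 0.443%), where few genes of any kind were called. In data simulated for the SE/NPB-like class, 84.0% of genes planted with a log2 fold change of 1 were recovered. The spread between libraries was set there and not estimated from these data. The share does not cover smaller differences or the classes without a call.

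*Folr1* was higher in the null gut-like class, at 67.7 and 61.0 CPM against 38.1 and 42.8 CPM in WT, with no overlap (log2 fold change 0.64, SE 0.07, edgeR adjusted p = 6.42e-07). The call was kept by DESeq2 and without any 1 library. In female gut-like cells the levels were 32.8 and 33.4 CPM in WT and 65.5 and 59.0 CPM in the null, a log2 fold change of 0.91 (adjusted p = 5.88e-06). In male cells they were 51.5 and 54.1 CPM against 73.4 and 57.3 CPM, and the log2 fold change of 0.25 was not called (adjusted p = 0.155). The 15 gut markers also summed higher in the null gut-like class (8099 and 8118 CPM against 5593 and 6039 CPM), and 12 posterior Hox genes lower (39.4 and 37.9 CPM against 173 and 228 CPM). Male cells were 35.0% and 29.0% of the WT and 61.6% and 64.1% of the null gut-like cells, and the part of these shifts in the result was not tested.

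Over all filtered cells *Folr1* had 6.32 and 6.20 CPM in the null against 3.29 and 3.34 CPM in WT (log2 fold change 0.89, SE 0.05, adjusted p = 2.3e-05, where 35.5% of all genes and 4 of 9 members were called). Gut-like cells numbered 402 and 385 in the null against 279 and 243 in the WT libraries, and in such sums more cells of a type and more RNA per cell cannot be told apart. *Gldc* was higher by 0.09 and *Mthfd2* and *Shmt1* lower by 0.07 and 0.09 on the log2 scale, with adjusted p of 0.0202, 0.0352 and 0.0149. None of these 3 was called by DESeq2, and without WT 1 none of them was called by edgeR.

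Outside the gut *Folr1* moved in both directions at low levels. In the NMP-like class it was lower in the null, at 0.507 and 0.535 CPM against 1.34 and 1.18 CPM (18 and 16 against 51 and 43 UMIs, log2 fold change -1.29, SE 0.26, adjusted p = 0.00506). In the SE/NPB-like class it was 2.22 and 1.54 CPM against 3.68 and 3.07 CPM (-0.87, SE 0.28, adjusted p = 0.0454), a call lost without WT 1 (adjusted p = 0.234), WT 2 (0.0504) or null 2 (0.227). In both the null libraries were below the WT libraries, from at most 51 UMIs in a library. In the neuroepithelium-like class it was higher, at 3.75 and 4.30 CPM against 2.56 and 2.88 CPM (0.54, SE 0.17, adjusted p = 0.0317), a call lost without WT 1 (0.164) or null 2 (0.146). In the paraxial mesoderm-like class it was 0.618 and 0.808 CPM against 0.279 and 0.298 CPM (1.26, SE 0.37, adjusted p = 0.027), a call lost without WT 1, WT 2 or null 2. Both WT values there lay under the count minimum of the fit. *Folr1* thus entered this test only through the null libraries, and the call is no result about the gene. The gut markers summed to 243 and 244 CPM in WT and 242 and 273 CPM in the null NMP-like class, to 271 and 268 against 313 and 328 CPM in the neuroepithelium-like class, to 167 and 171 against 171 and 173 CPM in the paraxial mesoderm-like class, and to 2722 and 2725 against 2177 and 2404 CPM in the SE/NPB-like class. Their part in the low levels of *Folr1* was not tested. In female NMP-like cells *Folr1* had 2.13 and 1.67 CPM in WT and 0.526 and 0.538 CPM in the null. Male cells held 2 UMIs in each WT library and 5 in each null library, too few to pass the count minimum of the fit, and no direction was read from them. With cells clustered on log-normalised counts the NMP-like value was 0.11, and with finer clusters the neuroepithelium-like value was -1.23, so both directions depended on where the class was drawn.

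*Slc19a1* was lower in the null NMP-like class, at 16.9 and 19 CPM against 20.9 and 21.8 CPM (-0.27, SE 0.06, adjusted p = 0.00757), and its log2 fold changes in the 11 other classes lay between -0.74 and 0.55 without a call. *Slc46a1* had log2 fold changes between -0.22 and 0.30 and *Mthfd1* between -0.21 and 0.16. No value of these passed the test, and in the NMP-like class *Mthfd1* came nearest, with 49.6 and 51.3 CPM against 53.8 and 52.8 CPM (-0.10, SE 0.03, adjusted p = 0.0644).

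*Mthfd2* was lower in the null in each of its 4 calls. In the gut-like class it had 35.6 and 40.7 CPM against 47.6 and 52.9 CPM in WT (-0.43, SE 0.07, adjusted p = 0.000147), so that the class where it was lowest in WT was lower still in the null. In the mesenchyme 2-like class it had 86.7 and 84.2 CPM against 104 and 98.8 CPM (-0.25, SE 0.05, adjusted p = 0.0017). Neuroepithelium-like cells had 101 and 106 CPM against 118 and 116 CPM (-0.20, SE 0.04, adjusted p = 0.00143). These 3 calls were kept by DESeq2 and without any 1 library, but with finer clusters those of the mesenchyme 2-like (0.05, adjusted p = 0.925) and neuroepithelium-like classes (-0.0018, adjusted p = 0.992) were lost. In the gut-like class male cells had 33.0 and 35.3 CPM against 45.8 and 52.8 CPM (-0.58, adjusted p = 0.00103), while female cells had 37.4 and 47.1 CPM against 47.1 and 52.5 CPM and were not called (-0.23, adjusted p = 0.203). That of the NMP-like class was smaller (87.5 and 89.0 CPM against 93.0 and 95.3 CPM, -0.11, SE 0.03, adjusted p = 0.0346) and was lost without WT 1 (0.0918), WT 2 (0.241) or null 1 (0.0585). In the neuroepithelium-like class female cells had 78.7 and 82.8 CPM against 122 and 118 CPM (-0.61, adjusted p = 2.18e-07) and male cells 107 and 112 CPM against 103 and 109 CPM (0.10, adjusted p = 0.340).

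*Shmt2* was lower in the null mesenchyme 2-like class, at 40.9 and 43.5 CPM against 53.6 and 52.1 CPM (-0.32, SE 0.05, adjusted p = 0.000568), and higher in 2 classes of the caudal axis. In the somitic mesoderm-like class it had 59.3 and 58.6 CPM against 50.3 and 50.6 CPM (0.22, SE 0.04, adjusted p = 0.00189). In the NMP-like class it had 48.8 and 48.9 CPM against 42 and 42.8 CPM (0.19, SE 0.04, adjusted p = 0.00333). *Mthfd1l* was higher in the same 2 classes, with 39.4 and 42.5 CPM against 34.5 and 35.7 CPM in the NMP-like class (0.20, SE 0.04, adjusted p = 0.00532) and 41.9 and 49.3 CPM against 39.3 and 39.9 CPM in the somitic mesoderm-like class (0.19, SE 0.06, adjusted p = 0.0392). With finer clusters, where the mesenchyme 2-like class held between 79 and 103 cells in a library, its value of *Shmt2* was 0.02 and not called (adjusted p = 0.976). The somitic mesoderm-like call of *Mthfd1l* was lost without WT 1 (0.0836), WT 2 (0.0514) or null 2 (0.477). In the NMP-like class *Shmt2* and *Mthfd1l* were thus called as higher by edgeR while *Mthfd2*, which acts between them in the mitochondrion, was called as lower. None of them was called there by DESeq2, with adjusted p of 0.0993 for *Shmt2*, 0.101 for *Mthfd1l* and 0.300 for *Mthfd2*. By edgeR each was called in female but not in male NMP-like cells. Of all genes, 515 of 11803 were called in male and 2912 of 12755 in female NMP-like cells. The lack of male calls was thus not particular to the members.

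*Shmt1* had 5 calls, all small. It was lower in the null mesenchyme 2-like (40.5 and 43.5 CPM against 49.8 and 51.2 CPM, -0.26, SE 0.06, adjusted p = 0.00328) and neuroepithelium-like classes (47.3 and 46.0 CPM against 54.5 and 50.8 CPM, -0.20, SE 0.05, adjusted p = 0.00637). It was also lower in the gut-like (46.2 and 44.7 CPM against 52.7 and 48.5 CPM, -0.19, SE 0.06, adjusted p = 0.0253) and NMP-like classes (47.0 and 48.7 CPM against 51.2 and 52.0 CPM, -0.13, SE 0.03, adjusted p = 0.0237). In the paraxial mesoderm-like class, where WT cells had least of it, it was higher (39.3 and 39.2 CPM against 34.7 and 34.3 CPM, 0.16, SE 0.04, adjusted p = 0.0217). Without WT 1 the neuroepithelium-like call (0.0596) was lost, and the gut-like call was lost without WT 1 (0.229), null 1 (0.0611) or null 2 (0.182). The NMP-like call was lost without WT 1 (0.0762), WT 2 (0.149) or null 1 (0.112), and the paraxial mesoderm-like call without WT 2 (0.0714), null 1 (0.0933) or null 2 (0.0759). With finer clusters the values were -0.046 in the mesenchyme 2-like and -0.018 in the neuroepithelium-like class, neither of them called. None of the 5 was called by DESeq2, with adjusted p between 0.116 and 0.345.

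*Gldc* was lower in the null mesenchyme 2-like class, at 4.83 and 3.74 CPM against 8.51 and 7.61 CPM (63 and 55 against 130 and 118 UMIs, -0.92, SE 0.17, adjusted p = 0.0015). This was the largest change of *Gldc* over the 12 classes tested, and with finer clusters it was -0.59 and not called (adjusted p = 0.732). In the neuroepithelium-like class it was also lower (38.0 and 39.7 CPM against 42 and 47.4 CPM, -0.22, SE 0.05, adjusted p = 0.00689), a call lost without WT 2 (0.0798) and with finer clusters (-0.0083, adjusted p = 0.978). In the paraxial mesoderm-like class it was higher (13.6 and 14.4 CPM against 10.5 and 11.8 CPM, 0.30, SE 0.08, adjusted p = 0.015), a call lost without WT 1 (0.0999). In the gut-like class, where it was most abundant, it had 144 and 149 CPM against 132 and 136 CPM and was not called (0.10, SE 0.05, adjusted p = 0.188). Within the sexes the gut-like values moved in opposite directions, a difference that was not itself tested. Male gut-like cells had 136 and 137 CPM in the null against 154 and 153 CPM in WT (-0.23, adjusted p = 0.0282), and female cells had 169 and 168 CPM against 123 and 130 CPM (0.42, adjusted p = 0.000634).

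**Figure D2:**
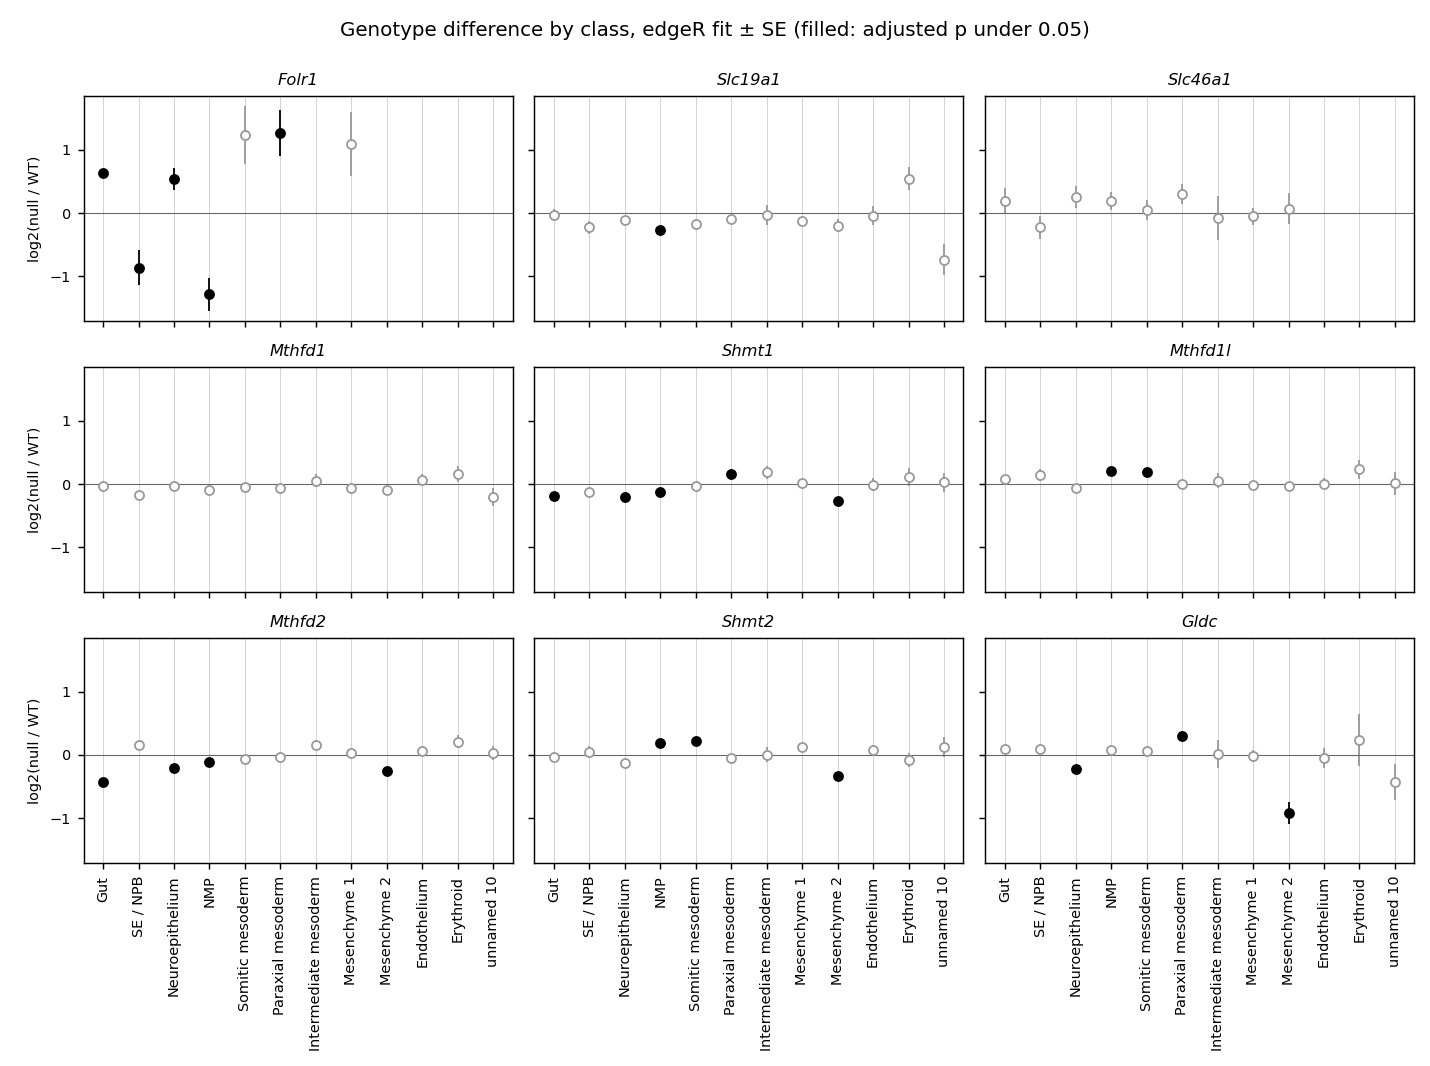
Each panel plots for 1 gene the log2 fold change of null over WT with its SE on the y axis, by class on the x axis, and filled points passed an adjusted p under 0.05 in edgeR. *Folr1* has called points on both sides of 0, from -1.29 in the NMP-like to 1.26 in the paraxial mesoderm-like class, whereas *Mthfd1* and *Slc46a1* have no filled point. The paraxial mesoderm-like point of *Folr1* passed the count minimum of the fit only through the null libraries.

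Several other measures moved with the genotype in the classes that hold these calls. In the neuroepithelium-like class the 12 posterior Hox genes summed to 183 and 182 CPM in WT and 1.63 and 0.483 CPM in the null, and in the mesenchyme 2-like class to 292 and 262 CPM against 19.8 and 21.1 CPM. They summed to 19.5 and 20.1 CPM against 3.27 and 3.31 CPM in the NMP-like class. Male cells were 12.3% and 15.8% of the WT and 82.7% and 84.9% of the null neuroepithelium-like cells, and 14.8% and 16.5% against 73.2% and 72.0% of the mesenchyme 2-like cells. In the paraxial mesoderm-like class they were 13.7% and 17.3% against 82.5% and 83.8%. The sexes were nearer in the NMP-like class, at 36.4% and 33.1% against 39.6% and 42.7%. The median UMI count of a paraxial mesoderm-like cell was 38274 and 42575 in the WT libraries against 55280 and 46665.5 in the null libraries. Haemoglobin genes summed to 280 CPM in the SE/NPB-like class of WT 1 and to between 26.3 and 32.8 CPM in the other 3 libraries. The 11 genes induced by dissociation summed to 203 and 196 CPM in WT and 126 and 132 CPM in the null mesenchyme 2-like class. The 9 genes of the amino acid response, among them *Atf4*, summed to 276 and 271 CPM against 244 and 245 CPM there, and 2 of 6 tested were lower and 0 higher. The part of these measures in the members' differences was not tested, beyond the values within each sex.

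The calls were compared within each sex because the sexes were so unequally shared. Of 21 calls that could be fitted in both sexes, 16 had the same sign in male and female cells. *Shmt1* in the neuroepithelium-like class was called in both and in opposite directions. Its male cells had 49.7 and 46.5 CPM in the null against 43.4 and 39.7 CPM in WT (0.27, adjusted p = 0.0324), and its female cells 42.3 and 41.7 CPM against 57.7 and 55.1 CPM (-0.47, adjusted p = 0.000182). *Shmt2* in the somitic mesoderm-like class had 0.19 in male (adjusted p = 0.125) and 0.26 in female cells (adjusted p = 0.000504). Of all genes, 451 of 11386 were called there in male and 2405 of 12066 in female cells. *Gldc* in the mesenchyme 2-like class was lower in female null cells (2.54 and 3.87 CPM against 8.88 and 8.55 CPM, -1.39, adjusted p = 0.00037), while its male cells had 5.83 and 3.07 CPM against 3.82 and 2.95 CPM (0.37, adjusted p = 0.639). Cells of 1 sex and genotype may come from few embryos, and with pooled embryos sex and embryo cannot be told apart.

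**Figure D3:**
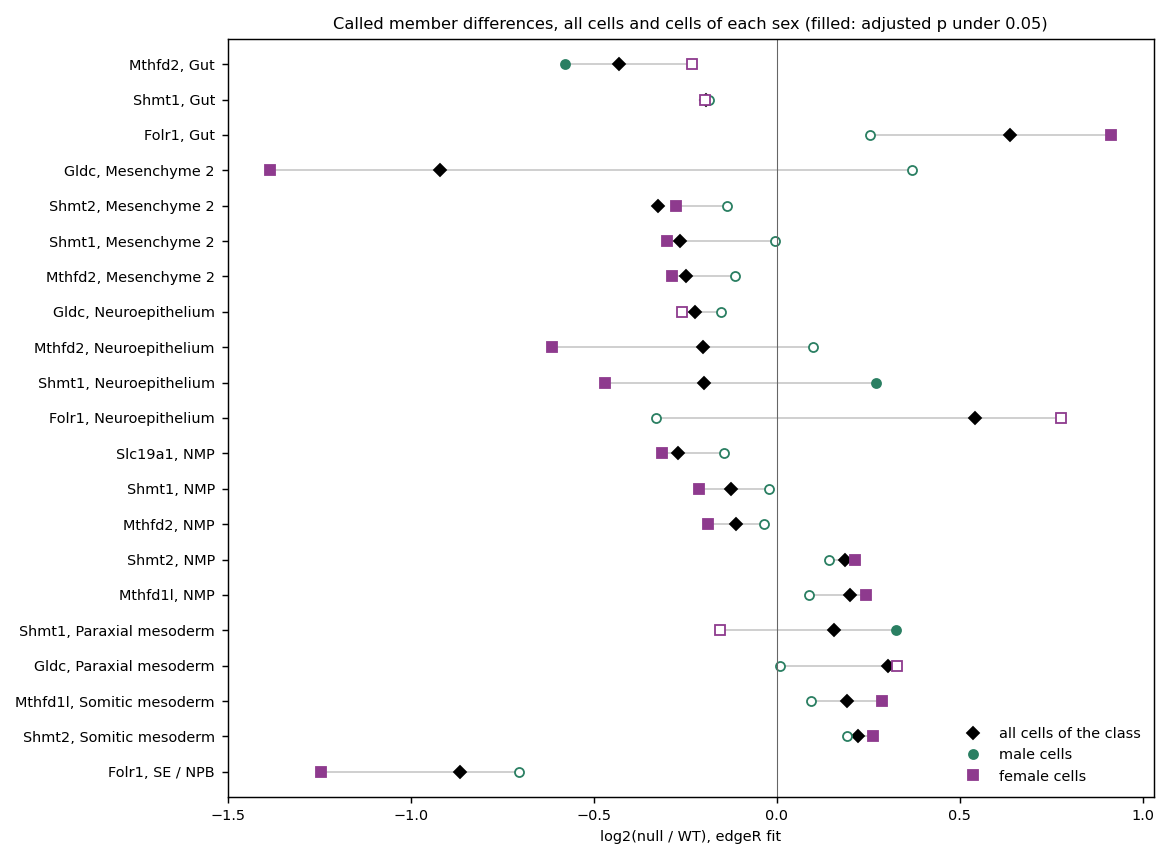
Each row is 1 of the 21 calls that could be fitted in both sexes, and the x axis is the log2 fold change of null over WT in all cells of the class (diamonds), male cells (circles) and female cells (squares), filled where the adjusted p was under 0.05. In 16 of the 21 rows the values of both sexes lie on the same side of 0, and *Shmt1* in the neuroepithelium-like class is filled on both sides of 0 (0.27 in male and -0.47 in female cells).

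Whether the genotype difference itself varied between the classes was asked by the class by genotype terms of a single fit over the 12 classes. This was called for 6 of 9 members against 32% of all genes, namely *Mthfd2* (adjusted p = 2e-08), *Gldc* (2.95e-06), *Folr1* (8.76e-06), *Shmt2* (2.96e-05), *Shmt1* (0.000241) and *Slc19a1* (0.0127). *Slc19a1* was lost without any 1 of the 4 libraries (adjusted p between 0.0676 and 0.195) and the other 5 were kept without each of them. *Mthfd1l* (0.0524), *Mthfd1* (0.349) and *Slc46a1* (0.428) were not called. The mesenchyme 2-like and somitic mesoderm-like classes lay at opposite ends for *Shmt2* (-0.32 and 0.22).

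Of 41 other genes of the pathway, 4 (*Aldh1l2*, *Ftcd*, *Bhmt*, *Gnmt*) had too few UMIs to be tested in any class, and 59 of 402 tests (14.7%) were called, 21 higher and 38 lower in the null. These came from 20 genes, of which 9 were called only as lower, 8 only as higher and 3 in both directions. The share called was close to the 13.3% of all genes.

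For the 7 genes of thymidylate and purine synthesis 25 of 84 tests (29.8%) were called as lower and 2 as higher in the null, and by DESeq2 11 as lower and 0 as higher. The directions of DESeq2 calls were not counted over all genes. Of all genes, between 0.186% (erythroid-like) and 12.1% (neuroepithelium-like) were called as lower in a class. Serine synthesis had 36.1% of its tests called in either direction, and folate transport and storage 13%. The methionine cycle had 6.03% and glycine cleavage 2.78%. *Tyms*, which makes thymidylate, was lower in 7 of 12 classes, as in the NMP-like (102 and 104 CPM against 123 and 125 CPM, -0.28, adjusted p = 0.000162) and paraxial mesoderm-like classes (125 and 123 CPM against 156 and 150 CPM, -0.33, adjusted p = 6.78e-05). *Atic*, which closes the purine ring, was lower in 7 of 12, most in the NMP-like class (109 and 109 CPM against 142 and 141 CPM, -0.40, adjusted p = 1.21e-05). *Ppat*, the first enzyme of purine synthesis, was lower in 5 and *Adsl*, which acts in the same route, in 4 of 12. *Gart* was lower in 2 and higher in 1, *Pfas* was higher in 1 and *Paics* had no call. By DESeq2 the lower calls were 5 for *Tyms*, 3 for *Atic*, 2 for *Adsl*, 1 for *Gart* and 0 for *Ppat*. Within the sexes the counts of these 7 genes ran the other way in male cells, with 18 of 70 tests higher and 7 lower, against 2 higher and 31 lower of 77 in female cells. Among male cells *Paics* was higher in 6, *Tyms* in 5, *Gart* in 3 and *Adsl* in 2 of 10 classes, and among female cells they were lower in 4, 7, 3 and 7 of 11. The sexes were not tested against each other, and directions over all genes were not counted within each sex.

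Serine synthesis, which feeds *Shmt1* and *Shmt2*, had calls in both directions. *Psat1* was higher in 5 of 12 classes, most in the SE/NPB-like class (75.2 and 71.1 CPM against 57.6 and 49.6 CPM, 0.41, adjusted p = 0.000637). *Phgdh*, the first enzyme of the route, was lower in 4, among them the neuroepithelium-like class (163 and 163 CPM against 194 and 186 CPM, -0.24, adjusted p = 0.000185), and higher in the mesenchyme 1-like class. Of the proteins that take up folate by endocytosis, *Cubn* was higher in 3 of 5 classes tested, as in the gut-like class (19 and 13.6 CPM against 5.07 and 9.18 CPM, 1.18, adjusted p = 0.000101). Its partner *Amn* was higher in the gut-like class (0.72, adjusted p = 0.000178). *Lrp2* was higher in 3 of 10, most in the mesenchyme 2-like class (18.2 and 19.6 CPM against 9.29 and 8.58 CPM, 1.08, adjusted p = 3.18e-06). *Ggh*, which trims folate polyglutamates, was lower in the SE/NPB-like class (-0.65, adjusted p = 0.000428). *Gcsh*, a carrier of the glycine cleavage system, was lower in 1 of 12 classes. DESeq2 called *Cubn* in 0 of 5 and *Gcsh* in 0 of 12 classes, *Psat1* as higher in 3, *Phgdh* as lower in 4 and higher in 1, *Lrp2* as higher in 2, *Amn* as higher in 1 and *Ggh* as lower in 1. *Phgdh* was higher in 4 and lower in 1 of 10 classes among male cells and lower in 6 of 11 among female cells.

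**Figure D4:**
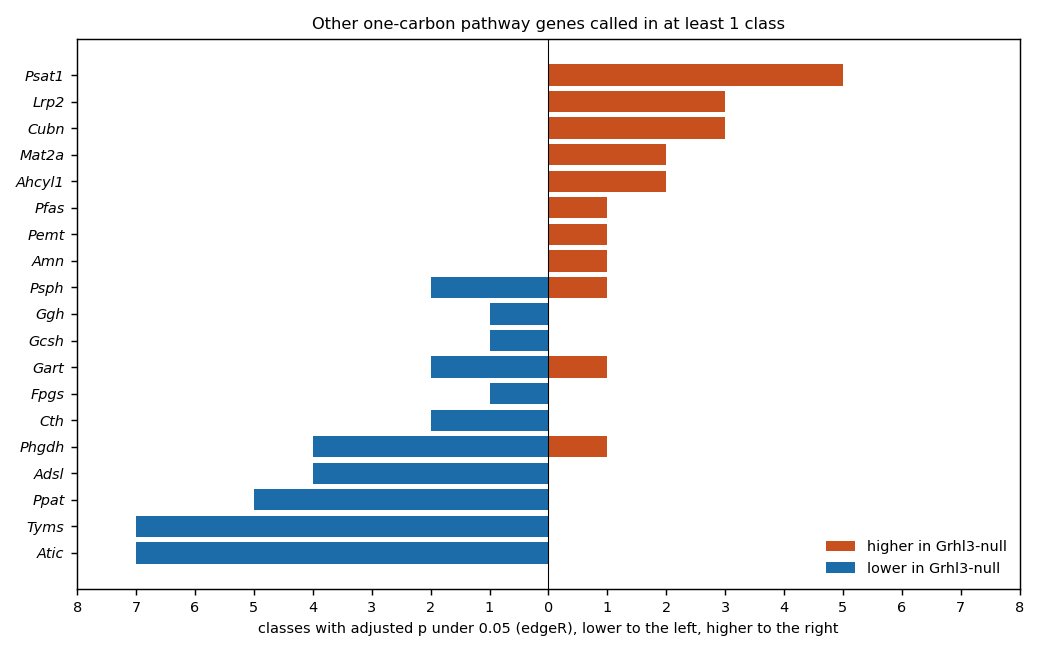
Horizontal bars give for 19 of the 20 other pathway genes with a call the number of classes in which it was higher (to the right) or lower (to the left) in the null. *Tyms* and *Atic* reach 7 classes on the lower side and *Psat1* reaches 5 on the higher side.

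Since one-carbon units are spent on DNA synthesis, cells called in S phase were compared with cells called in G1 of the same class and library. The lists behind the phase calls hold none of the 9 members, though *Tyms* is in the S list, so its values here are no finding. Over 5 comparisons 9 of 44 member tests were called, and apart from that of *Folr1* the called fold changes were at most 0.34 on the log2 scale in size. In the NMP-like class 2 of 8 members were called between S and G1 (21.3% of all genes). *Mthfd1* was higher in S, at 61.0, 63.5, 57.1 and 63.3 CPM against 52.1, 48.7, 43.5 and 48.7 CPM in G1 in WT 1, WT 2, null 1 and null 2 (0.34, SE 0.06, adjusted p = 2.5e-05), which is every library. *Mthfd2* was lower (89.9, 92.9, 82.3 and 87.3 CPM against 95.8, 104, 93.4 and 93.2 CPM, -0.13, SE 0.05, adjusted p = 0.0392), a call lost without any 1 library (adjusted p between 0.0652 and 0.154).

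In the neuroepithelium-like class 3 of 9 members were called between S and G1, all higher in S (15% of all genes were called, 7.79% as higher). *Mthfd1* had 59.9, 63.9, 59.6 and 58.5 CPM against 54.7, 46.9, 51.6 and 52.1 CPM (0.25, SE 0.07, adjusted p = 0.0145), a call lost without WT 2 (0.154). *Shmt1* had 62.9, 56.9, 55.1 and 51.2 CPM against 52.1, 45.4, 45.4 and 45.3 CPM (0.28, SE 0.07, adjusted p = 0.0061), and was kept without any 1 library. *Slc19a1* had a log2 fold change of 0.28 (SE 0.10, adjusted p = 0.0479) and was lost without WT 2 (0.150), null 1 (0.187) or null 2 (0.209). *Mthfd1* was so the member called in S in both classes. Of the other pathway genes, *Tyms* left out, 11 of 32 were higher and 0 lower in S in the NMP-like class (11.1% of all genes were called as higher), and 10 of 32 higher and 0 lower in the neuroepithelium-like class. Among the genes higher in both were *Atic*, *Cth*, *Dld*, *Gart*, *Paics*, *Phgdh* and *Ppat*.

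Between G2M and G1, 3 of 9 members were called in the NMP-like class (22.6% of all genes). *Mthfd2* was lower by 0.15 (SE 0.03, adjusted p = 0.000441), *Slc19a1* lower by 0.19 (SE 0.07, adjusted p = 0.0306) and *Folr1* higher by 1.13 (SE 0.37, adjusted p = 0.017). The *Folr1* value rests on 41, 24, 16 and 10 UMIs in G2M and 4, 12, 0 and 5 UMIs in G1, and was lost without WT 1 (0.453) or null 1 (0.0525), and *Folr1* fell under the count minimum without WT 2. That of *Slc19a1* was lost without WT 2 (0.282) or null 1 (0.0869). No member of 9 was called in the neuroepithelium-like class (10.9% of all genes). In the SE/NPB-like class 1 of 9 was called (7.14% of all genes). This was *Mthfd2*, lower by 0.23 (SE 0.06, adjusted p = 0.0318), which was lost without WT 1 (0.198), WT 2 (0.0996) or null 2 (0.0511).

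**Figure D5:**
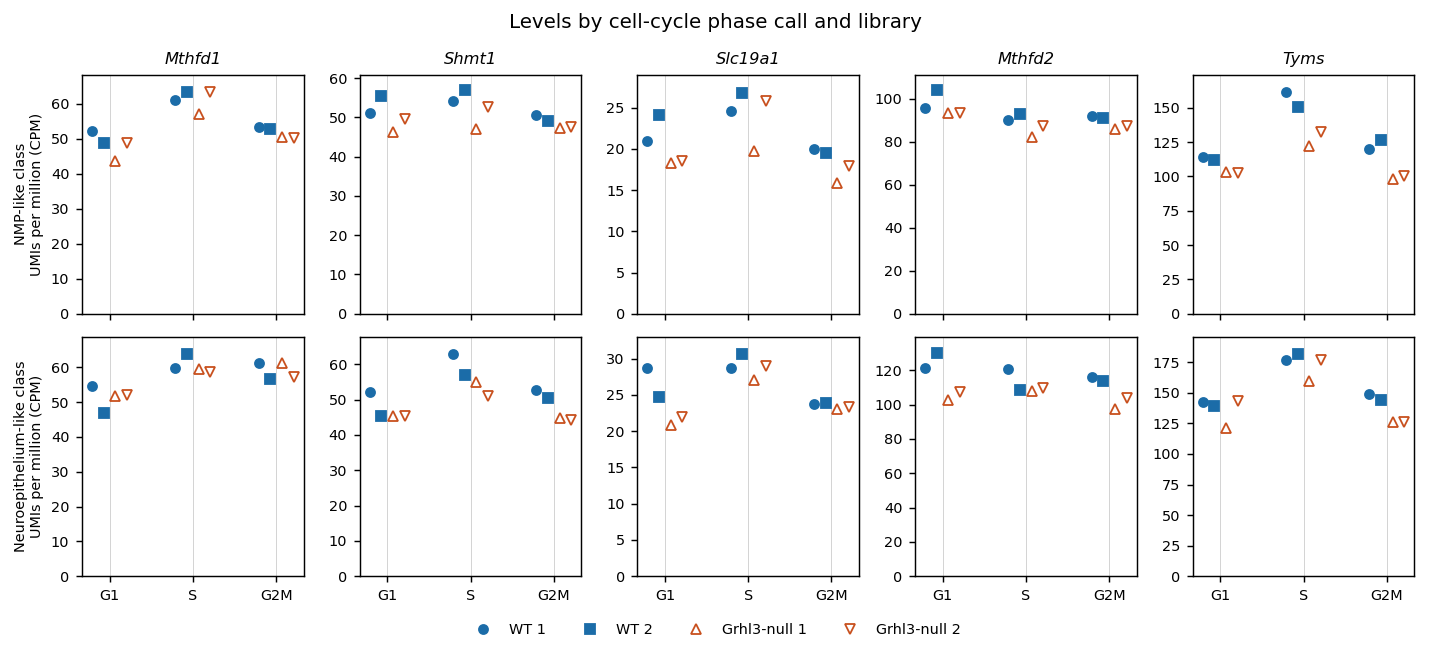
The CPM of 4 members and of *Tyms* are plotted by phase call (x axis) for the NMP-like class (upper row) and the neuroepithelium-like class (lower row), with filled blue symbols for the WT and open orange symbols for the null libraries and y axes that start at 0. *Mthfd1* is higher in S than in G1 in every library of both classes, and *Tyms* is in the S list itself.

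At E8.5 the study places *Grhl3* mainly at the neural plate border, in cells that it sets apart from committed surface ectoderm. WT cells of the SE/NPB-like class with a *Grhl3* UMI (123 and 115 cells) were compared with those without (108 and 94 cells). Of the 9 members 1 was called, with 9.72% of all genes. *Gldc* had 47.8 and 43.9 CPM in *Grhl3*-positive and 29.0 and 30.9 CPM in *Grhl3*-negative cells (0.65, SE 0.12, adjusted p = 0.000585), higher in both libraries. The positive cells were the more deeply sequenced, with a median of 62419 and 64008 UMIs against 35581 and 31614.5 UMIs. When each cell was thinned to 7500 UMIs before the split, the fold change of *Gldc* turned to -0.13 and was not called, with 42 and 32 cells left as positive. Among other pathway genes 4 of 33 were called, *Ggh* as higher and *Lrp2*, *Phgdh* and *Tyms* as lower in *Grhl3*-positive cells. After thinning none of 26 was called, with 1.02% of all genes, and the values were 1.16 for *Ggh*, -0.90 for *Lrp2*, -0.52 for *Phgdh* and -0.020 for *Tyms* (adjusted p between 0.150 and 0.996). No difference of *Folr1* was called, at 4.16 and 2.77 CPM in positive and 2.83 and 3.73 CPM in negative cells.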

How the data were processed

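RNA of single cells from pooled caudal embryo parts was captured with 10x 3′ v3.1 chemistry. The authors made the deposited counts with Cell Ranger 3.0.0 against mm10, as UMI counts per gene and called cell, before the filters of the study. Cells were retained from 3000 genes and 7500 UMIs upwards and up to a mitochondrial share of 7%, which was between 77.4% and 89.8% of each library's cells. Counts were normalised with sctransform 0.4.2 and clustered in Seurat 5.3.0 (3000 variable features, 30 principal components, 20 neighbours, resolution 0.4). A cluster took a cell type's name if its 30 leading genes held 3 or more of that type's 15 markers and over 1.5 times as many as for the next type. Doublets were kept, since the caller marked at most 0.0413% of cells, and removing the top 5% of scores was tried as an alternative.

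Sums of UMIs were formed for 12 classes with at least 50 cells in each library. They were tested with the quasi-likelihood test of edgeR 4.0.16 (TMM, filterByExpr, no replicate block, all 4 libraries) with Benjamini-Hochberg adjustment over all genes tested. DESeq2 1.42.0 was an alternative. Replicates of a genotype were kept apart, since a chi-square test gave 7.77 (WT) and 13.6 (null) for each degree of freedom, above the 1 of pure counting. The tests were tried on simulated data before use, and with 200 genes planted at a log2 fold change of 1 they recovered 90.5% over all cells, 94.0% between S and G1 of the NMP-like class and 81.5% in the split by *Grhl3*. The last term of the interaction recovered 28.0%. In all of these simulated data the spread between libraries was set and not estimated from the libraries. Limits on counts of 0 use 3 UMIs and cover counting error only.

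The members, the pathway genes and the other lists were chosen with earlier results of these data known. The text names every member, pathway genes that passed a test, *Grhl3*, and for each member the 3 genes whose WT class means were most like it among genes of at least 10 CPM. The values of 1 pathway gene are not reported here, though the counts over the pathway include it. Leading genes of a cluster were named after their values were seen. Alternatives were another test, normalisation, filter, clustering, doublet removal, a mitochondrial limit of 5%, each sex, each library left out and a replicate block. Phases were called from lists of S and G2M genes. Sequences are RefSeq promoters of GRCm38.p6, the assembly of mm10.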

Additional observations from a re-analysis of the deposited data

Results flagged for a closer look

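The genotype difference of 6 members varied between the classes by the interaction terms of edgeR, with adjusted p of 2.00e-08 for *Mthfd2*, 2.95e-06 for *Gldc*, 8.76e-06 for *Folr1*, 2.96e-05 for *Shmt2*, 0.000241 for *Shmt1* and 0.0127 for *Slc19a1*.

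For 3 of the calls the null and WT levels differed in opposite directions in male and female cells, with every null library on one side of every WT library in each sex. The difference between the sexes was not tested. For *Folr1* in the neuroepithelium-like class the null minus WT difference in mean level was -1.32 CPM in male and 1.45 CPM in female cells. Neither was called by edgeR (adjusted p = 0.442 and 0.101). For *Shmt1* in that class it was 6.58 CPM in male and -14.4 CPM in female cells, and both were called by edgeR (adjusted p = 0.0324 and 0.000182). For *Shmt1* in the paraxial mesoderm-like class it was 8.55 CPM in male and -3.56 CPM in female cells. By edgeR the male value was called (adjusted p = 0.0382) and the female value was not (0.412).

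For 2 more calls, both of *Folr1*, the libraries were separated in the same way but could not be fitted in both sexes, and no direction is read from them. In the NMP-like class the differences were 0.309 CPM in male and -1.37 CPM in female cells, with 2 UMIs in each WT and 5 in each null library of the male cells. In the paraxial mesoderm-like class they were 0.811 and -0.244 CPM, with 0 UMIs in both WT libraries of the male cells and 1 and 0 in the null libraries of the female cells. Counting these, the libraries were separated in opposite directions for 20 of the 86 pairs of a member and a class with enough cells of both sexes. This was counted for the members only and with no minimum of UMIs. How often other genes are separated so is not known, and the count is no result about the members.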

How the results depend on the processing

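Against 23 calls in the classes (9 higher and 14 lower), DESeq2 made 6, male cells alone gave 10, of which 2 were among the 23 in the same direction, and asking for 1 or more on the log2 scale left 2, while leaving out 1 library gave between 14 (without WT 1) and 19. With library totals in place of TMM the split was 10 higher and 10 lower. Over all cells the number of calls went from 4 to 1 by DESeq2, 2 with library totals, 2 with a mitochondrial limit of 5%, 1 in male cells and between 1 (without WT 1) and 5 without 1 library. The interaction was called for between 5 and 6 members without 1 library. Between phases it went from 9 to 1 at a log2 fold change of at least 1 and between 3 (without WT 2) and 7 without 1 library, and library totals gave 6 higher and 2 lower against 5 and 4. In the split by *Grhl3* it went from 1 to 2 with library totals and 0 after thinning. The class with the highest level was the same for 4 of 9 members when the members and pathway genes were left out of clustering, 4 at resolution 0.8, and between 7 and 8 in 1 WT library. The cause of these changes was not tested.

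The 43 called values were refitted 485 times under the alternatives, of which 348 kept the call, 125 lost it in the same direction and 12, for 11 of the values, reversed. In male cells these were *Folr1* (-0.33), *Mthfd2* (0.10) and *Shmt1* (0.27) in the neuroepithelium-like class, *Gldc* in the mesenchyme 2-like class (0.37), and *Gldc* (-0.033) and *Shmt1* (0.0037) over all cells. In female cells it was *Shmt1* in the paraxial mesoderm-like class (-0.16). At resolution 0.8 they were *Folr1* in the neuroepithelium-like (-1.23), and *Mthfd2* (0.052) and *Shmt2* (0.023) in the mesenchyme 2-like class. The others were *Folr1* in the NMP-like class with log-normalised counts (0.11) and *Gldc* in the split by *Grhl3* after thinning (-0.13). The cause was not tested.

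Same-numbered libraries share only a number (correlation of their deviations 0.0082), and with the replicate number as a block 26 calls were made in the classes, which kept all 23, and 6 over all cells.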
